A study of Mus musculus with 16 samples.

Results

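The genes of the proteasome were examined in blood progenitors labelled Tet2KO and WT. They were chosen by name, as every symbol that begins with Psm, a letter from a to g and a number, which gave 49 of the 23420 gene symbols in each deposited table. TET2 oxidizes 5-methylcytosine in DNA. RNA was measured in granulocyte-monocyte progenitors (GMP; sorted as CD16/32+ Kit+ cells without lineage markers, Sca1 or CD150) and in multipotent progenitors (MPP; sorted as CD48+ Sca1+ Kit+ cells without lineage markers or CD150), both from mouse bone marrow at 40 weeks of age. Each population came from 4 mice labelled Tet2KO, with the genotype Tet2-/-, and 4 mice labelled WT, with the genotype Tet2fl/fl, which makes 16 libraries. The labels speak of mice whose blood formation is Tet2-deficient or wild type and name no Cre driver, so the sources used here do not say in which cells Tet2 was deleted.

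The proteasome is the main protease of the cytosol and nucleus. Its core particle (20S) is a barrel with outer rings of alpha subunits, which gate the entry, and inner rings of beta subunits, some of which cut the substrate. A regulatory particle (19S) caps the barrel, binds proteins tagged with ubiquitin, removes the ubiquitin and unfolds and threads the protein with a ring of ATPases. In cells of the immune system and after interferon, the catalytic beta subunits can be replaced by inducible ones that form the immunoproteasome, which cuts peptides for presentation on MHC class I.

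Of the 49 symbols, 31 encode standard subunits of the core and regulatory particles. A further 3 encode inducible beta subunits (Psmb8, Psmb9 and Psmb10), 4 encode activators (Psme1 to Psme4), 1 an inhibitor (Psmf1), 3 assembly chaperones of the regulatory particle (Psmd5, Psmd9 and Psmd10) and 4 assembly chaperones of the core particle (Psmg1 to Psmg4). Psma8, a testis form of an alpha subunit, and Psmb11, the beta subunit of the thymic cortex, are tissue-specific. Psmc3ip matches by name only and encodes a protein of meiotic recombination. In GMP 48 members passed the authors' filter and were tested, and in MPP 47. Psmb11 was below the filter in both tables, with a mean normalized count of 1.05 in GMP and 0.132 in MPP. Psmd7, a subunit of the regulatory particle, was marked as an outlier in MPP and carries no p-value there.

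The deposited tables hold the authors' own comparison of Tet2KO with WT for each population, made with DESeq2, and no values per library, so every fold change, standard error (SE) and adjusted p-value of a single gene below is that of the authors' deposited table. Fold changes are log2 values of Tet2KO over WT, and a gene was called at an adjusted p of 0.05. The mean normalized count of a gene runs over all 8 libraries of a population, and the depth of each library is unknown. The tested members had means of 58.2 to 3512 in GMP and 55.8 to 2968 in MPP, with a median SE of 0.0908 in GMP and 0.144 in MPP, so a change has to be larger in MPP to be called. Of 5 genes of the progenitor list, Kit, Cd34, Flt3 and Cd48 had means of at least 602 in both populations, while Ly6a, which encodes Sca1, had 19.5 in GMP and 266 in MPP. The B cell genes Cd79a and Ms4a1 and the T cell genes Cd3e and Cd3g had means of at most 2.95. Csf1r, a monocyte receptor gene, rose by 0.56 in GMP (SE 0.111, adjusted p = 9.29e-05, DESeq2 as deposited), the other gene of the monocyte list, Itgam, was marked as an outlier, and their part in the values below was not tested. The erythroid gene Klf1 was marked as an outlier in both tables. In bulk samples a change in the mix of cells and a change of RNA per cell cannot be told apart. Tet2 itself had a higher value in the libraries labelled Tet2KO, at 0.35 (SE 0.0748) in GMP and 0.44 (SE 0.0992) in MPP. That value covers the whole gene and not the deleted part, so it does not check the labels, and each direction below rests on the labels and on the names of the tables.

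In GMP, all 31 standard subunit genes of the core and regulatory particles had values below 0, Tet2KO against WT, and 6 of them were called. Psmd14, Psmc6, Psma3, Psma1, Psmd6 and Psma5 fell to between 75.1% and 84.0% of the WT level. Among the 48 tested members, 6 were called, a share of 12.5%, all lower and none higher. Over all 11503 tested genes 3.96% were called in either direction and 2.22% were called lower. Of the 8304 genes with a mean of at least 100, as all 6 have, 2.88% were called lower. Below 0 lay 42 of 48 members, where 49.9% of all tested genes and 54.8% of those with a mean of at least 100 did, and the median log2 fold change was -0.16, beside 0.00025 over all tested genes. No test over the list was made. The spread of the test statistic over all tested genes was 1.35 times that of the normal null, and when the statistic was centred and rescaled to that spread none of the 6 was called.

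Psmd14, the deubiquitinase of the regulatory particle that strips ubiquitin from substrates before they enter the barrel, had the lowest value. It fell by 0.41 in GMP (SE 0.101, adjusted p = 0.00373, authors' DESeq2 table), which puts it at 75.1% of the WT level, with a mean of 1456 normalized counts. Psmc6, 1 of the 6 ATPases that unfold the substrate, fell by 0.33 (SE 0.0792, adjusted p = 0.00261) and had the smallest adjusted p of the members. Psmd6, a subunit of the lid that holds Psmd14, fell by 0.28 (SE 0.0763, adjusted p = 0.0107). The alpha ring, which gates the barrel, gave the other 3. Psma3 fell by 0.32 (SE 0.0919, adjusted p = 0.0185), Psma1 by 0.29 (SE 0.0808, adjusted p = 0.0175) and Psma5 by 0.25 (SE 0.0624, adjusted p = 0.00431), all by DESeq2 as deposited. Just short of the threshold were Psma4 and Psma6, also of the alpha ring, with values of -0.27 (adjusted p = 0.0526) and -0.20 (adjusted p = 0.0540).

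The same 6 genes are shown here by the 250 bases upstream of their RefSeq start (GRCm38.p6, the assembly also called mm10), because they were called in the same direction. Letters run 5′ to 3′ on the strand of the gene. Capitals mark matches, on either strand, to TGANNNNGC (the core of the antioxidant response element, bound by NFE2L1 and NFE2L2), CCAAT (bound by NF-Y), CCGGAA (the core of ETS factor sites), CACGTG (the E-box) and the interferon-stimulated response element.
Psmd14, chr2:61711444-61711693, plus strand: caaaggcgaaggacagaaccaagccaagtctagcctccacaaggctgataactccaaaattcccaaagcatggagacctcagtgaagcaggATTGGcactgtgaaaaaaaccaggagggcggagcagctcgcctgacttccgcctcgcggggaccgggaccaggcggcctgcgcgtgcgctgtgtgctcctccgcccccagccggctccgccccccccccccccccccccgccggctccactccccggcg
Psmc6, chr14:45329574-45329823, plus strand: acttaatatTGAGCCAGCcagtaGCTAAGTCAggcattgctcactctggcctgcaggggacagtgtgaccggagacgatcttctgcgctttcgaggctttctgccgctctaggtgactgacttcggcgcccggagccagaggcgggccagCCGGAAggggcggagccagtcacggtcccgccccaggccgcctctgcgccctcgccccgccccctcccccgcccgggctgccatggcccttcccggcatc
Psma3, chr12:70974373-70974622, plus strand: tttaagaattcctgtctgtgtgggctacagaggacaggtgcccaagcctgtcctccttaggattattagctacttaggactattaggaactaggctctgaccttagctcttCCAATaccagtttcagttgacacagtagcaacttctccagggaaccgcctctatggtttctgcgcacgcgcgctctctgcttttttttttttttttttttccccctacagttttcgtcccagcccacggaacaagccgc
Psma1, chr7:114276117-114276366, minus strand: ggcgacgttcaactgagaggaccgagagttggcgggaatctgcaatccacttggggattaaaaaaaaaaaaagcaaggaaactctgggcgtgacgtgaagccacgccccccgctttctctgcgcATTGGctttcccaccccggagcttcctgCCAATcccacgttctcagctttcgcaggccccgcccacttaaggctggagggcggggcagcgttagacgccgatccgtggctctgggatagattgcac
Psmd6, chr14:14120946-14121195, minus strand: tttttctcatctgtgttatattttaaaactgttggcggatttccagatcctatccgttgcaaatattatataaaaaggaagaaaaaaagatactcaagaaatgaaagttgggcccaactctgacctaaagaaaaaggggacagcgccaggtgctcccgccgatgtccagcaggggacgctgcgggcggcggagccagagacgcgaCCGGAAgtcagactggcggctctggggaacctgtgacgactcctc
Psma5, chr3:108256676-108256925, plus strand: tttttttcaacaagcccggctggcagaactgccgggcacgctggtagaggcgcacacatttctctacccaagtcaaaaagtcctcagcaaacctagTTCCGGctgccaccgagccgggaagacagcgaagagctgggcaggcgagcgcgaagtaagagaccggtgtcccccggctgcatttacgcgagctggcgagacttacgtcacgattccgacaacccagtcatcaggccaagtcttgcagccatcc

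The upstream sequences of Psma5, Psmc6 and Psmd6 held the ETS core CCGGAA, and those of Psma1, Psma3 and Psmd14 held CCAAT. Psmc6 alone of the 6 held TGANNNNGC, and none held CACGTG or the interferon-stimulated element. The GC box GGGCGG, not capitalized above, was in 4 of the 6. Motifs were counted separately, and matches to different motifs may overlap. An upstream sequence was at hand for 41 of the 49 members. Among these, CCGGAA was in 17 (41.5%), against 12.2% of all 27025 RefSeq upstream sequences of the same length and 23.7% of those of the 8575 genes that were also tested in GMP. Among the 25 core and regulatory particle genes with a sequence, 11 (44.0%) held it. TGANNNNGC was in 15 of 41 (36.6%), against 35.1% of all sequences and 37.0% of those of tested genes, CCAAT in 15 of 41 (36.6%), against 34.5% and 36.9%, and GGGCGG in 22 of 41 (53.7%), against 32.9% of all sequences and 59.6% of those of tested genes. CACGTG was in 4 of 41 (9.76%), against 6.05% of all and 8.65% of those of tested genes, and the interferon-stimulated element in 3 of 41 (7.32%), against 3.04% and 2.50%. The median number of CpG dinucleotides, the sites TET2 acts on, was 14 per 250 bases for members and 16 for tested genes, and the called genes ran from 8 in Psma3 to 20 in Psmc6. These are descriptions of letters, and no motif was tested for a part in the values.

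**Figure D1:**
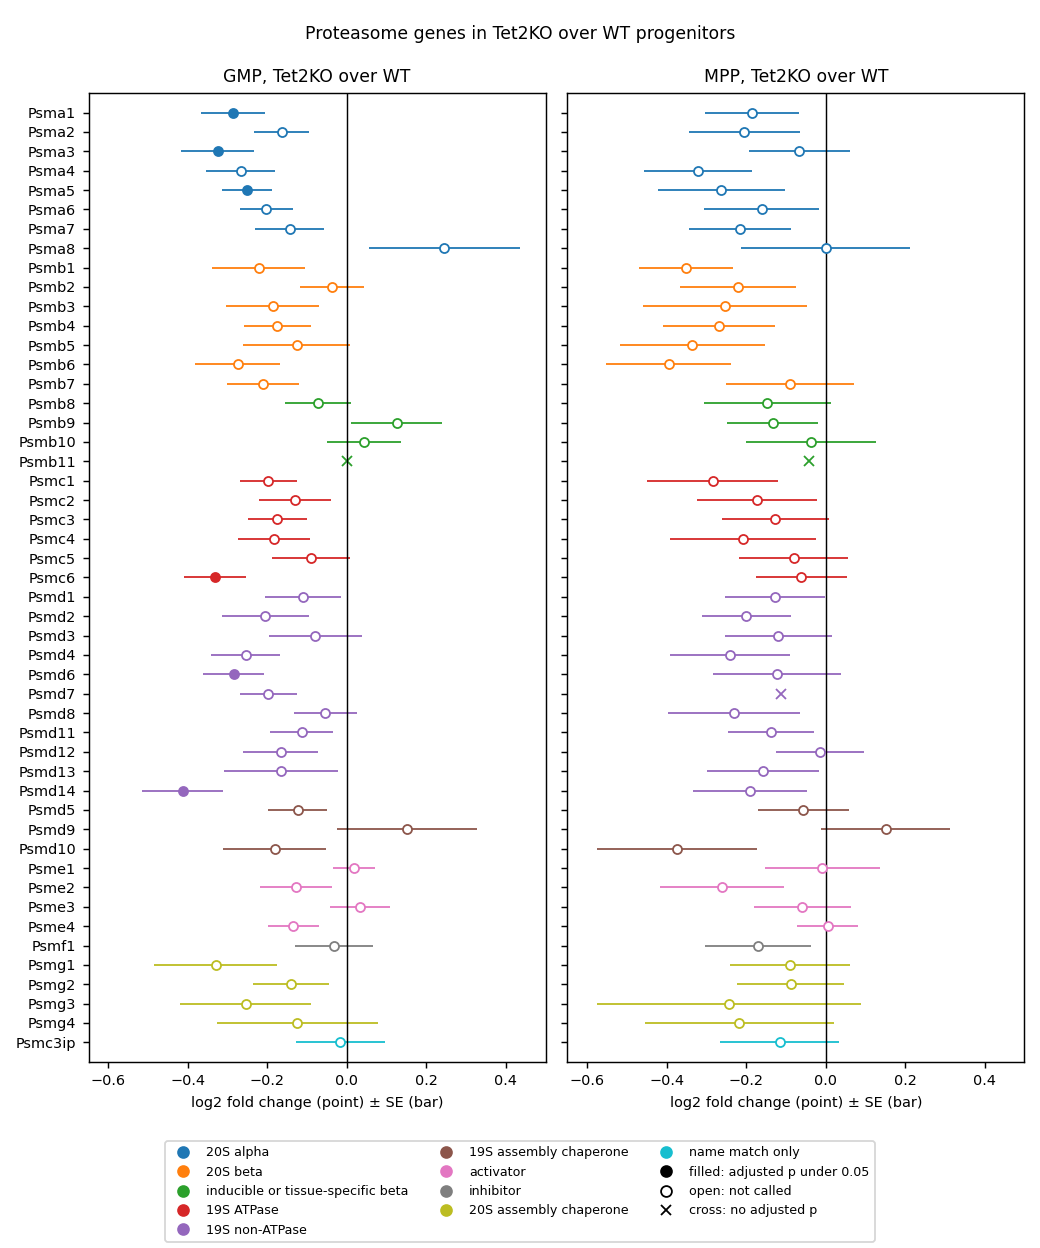
Log2 fold change of Tet2KO over WT (x axis, point) with its SE (bar) for each of the 49 proteasome symbols (y axis, coloured by subcomplex), in GMP (left) and MPP (right). Filled points mark the 6 genes called in GMP, open points genes not called and crosses genes without an adjusted p. In GMP 42 of 48 tested members lay below 0 and in MPP 45 of 47.

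By subcomplex, the alpha subunits, Psma8 included, had a median log2 fold change of -0.23 in GMP, with 7 of 8 members below 0, 3 called and 6 with an unadjusted p under 0.05. Psma2 and Psma7 had values of -0.16 (SE 0.0682) and -0.14 (SE 0.0862). The member above 0 was Psma8, at 0.25 (SE 0.189), which is not called. Of the 7 standard beta subunits all lay below 0 in GMP, with a median of -0.19 and none called. Psmb6, which carries the caspase-like activity, had the lowest value at -0.27 (SE 0.108, unadjusted p = 0.0109 and adjusted p = 0.134 in the authors' DESeq2 table), and Psmb2 the highest at -0.04 (SE 0.0803). Psmb7, with the trypsin-like activity, had -0.21 (SE 0.0910), Psmb4 -0.17 (SE 0.0843) and Psmb5, with the chymotrypsin-like activity, -0.13 (SE 0.134). Of the 6 ATPases all lay below 0 in GMP, with a median of -0.18. Besides Psmc6, the ATPase genes Psmc1, Psmc3 and Psmc4 had values of -0.20, -0.17 and -0.18 with an unadjusted p under 0.05, and Psmc5 had the highest at -0.09 (SE 0.0989). Of the 11 other subunits of the regulatory particle all lay below 0 in GMP, with a median of -0.17. Psmd4, a receptor for ubiquitin chains, had -0.25 (SE 0.0870, adjusted p = 0.0681) and Psmd7, the partner of Psmd14, had -0.20 (SE 0.0706, adjusted p = 0.0882) in the authors' DESeq2 table. Psmd8 had the highest value of these subunits at -0.05 (SE 0.0790).

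In all, 31 of 31 standard core and regulatory subunits lay below 0 in GMP, with a median of -0.19 and values from -0.41 to -0.04. At an unadjusted p of 0.05, 19 of the 48 tested members (39.6%) were lower and none higher, where 8.68% of all tested genes were lower. Of these 19, 17 were standard subunits. The other 2 were Psme4 and Psmg1.

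The inducible subunits, the activators and the inhibitor lay on both sides of 0 in GMP, with 4 of 8 tested genes below 0, a median of -0.01 and values from -0.13 to 0.13. Psmb9, which takes the place of Psmb6 in the immunoproteasome, had a value of 0.13 (95% interval -0.10 to 0.35). Psmb10, which takes the place of Psmb7, had 0.04 (95% interval -0.14 to 0.23), and Psmb8, which takes the place of Psmb5, had -0.07 (95% interval -0.23 to 0.09). Psme1 and Psme2 form the interferon-inducible activator PA28 and had values of 0.02 (SE 0.0521) and -0.13 (SE 0.0907). Psme3, its nuclear relative, had 0.03 (SE 0.0759), and Psmf1, the inhibitor PI31, had -0.03 (SE 0.0988). Psme4, the large activator PA200, had -0.13 (SE 0.0640, unadjusted p = 0.0349 and adjusted p = 0.254 in the authors' DESeq2 table). Within each catalytic pair the inducible gene had the higher value in GMP, and also in MPP. The difference within a pair was not tested, because the errors of genes in the same libraries are shared by an amount that the tables do not give.

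The assembly chaperones of the core particle, which build the alpha ring, all lay below 0 in GMP, with a median of -0.20. Psmg1 had the lowest value at -0.33 (SE 0.155, unadjusted p = 0.0337 and adjusted p = 0.250 in the authors' DESeq2 table) and Psmg4 the highest at -0.12 (SE 0.202). Of the chaperones of the regulatory particle Psmd10, known as gankyrin, had -0.18 (SE 0.130), Psmd5 -0.12 (SE 0.0744) and Psmd9 0.15 (SE 0.176). None of these 7 chaperone genes was called. Psmc3ip, which matches by name only, had -0.02 (SE 0.112).

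**Figure D2:**
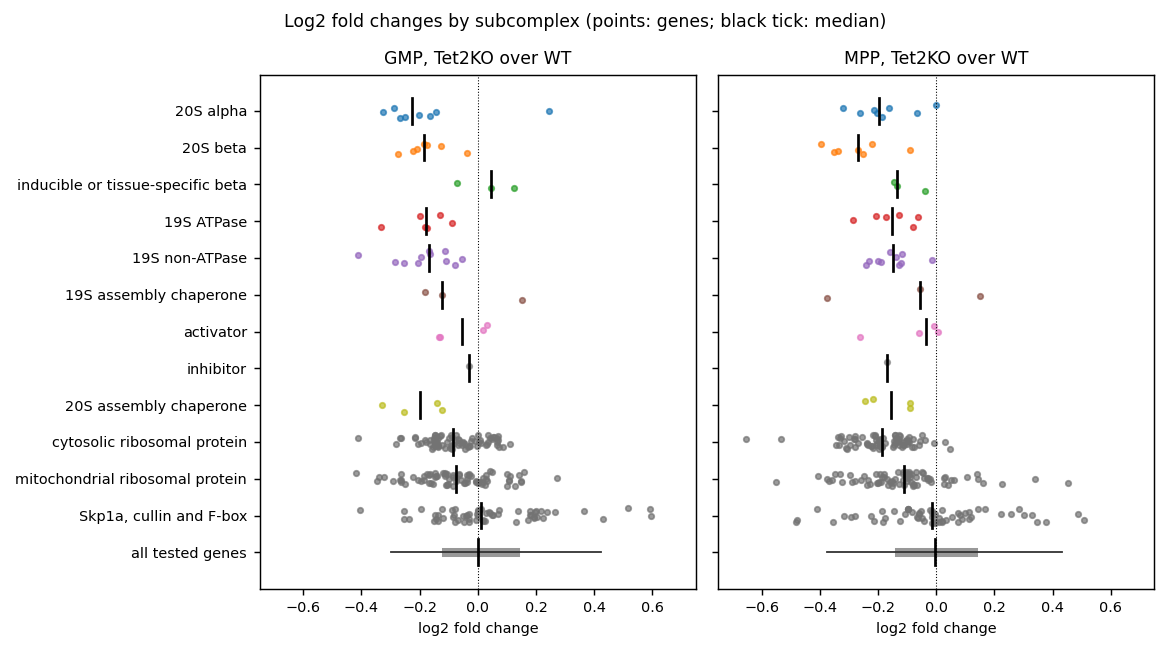
Log2 fold changes of Tet2KO over WT (x axis) by subcomplex (y axis) in GMP (left) and MPP (right); each point is a tested gene and the black tick the median. The alpha class (with Psma8), the beta class and the ATPase and non-ATPase classes have medians from -0.23 to -0.17 in GMP and from -0.27 to -0.15 in MPP, while the median of all tested genes (grey bar: quartiles, line: 5% to 95%) is near 0 in both.

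In MPP no proteasome gene was called, although 45 of the 47 tested members lay below 0 (44 after recentring on all tested genes, with Psma8 then above 0) and the median log2 fold change was -0.16, beside -0.0038 over all 11859 tested genes, of which 50.9% lay below 0. Over all tested genes 0.616% were called in either direction and 0.270% were called lower. At an unadjusted p of 0.05, 3 of 47 members (6.38%) were lower and none higher, where 4.80% of all tested genes were lower. These were the beta subunit genes Psmb1, at -0.35 (SE 0.118, unadjusted p = 0.00286 and adjusted p = 0.176), and Psmb6, at -0.40 (SE 0.157, unadjusted p = 0.0119 and adjusted p = 0.330), and the alpha subunit gene Psma4, at -0.32 (SE 0.136, unadjusted p = 0.0182 and adjusted p = 0.377), all in the authors' DESeq2 table. The smallest adjusted p of the members was thus 0.176. A count of 0 called genes does not show that these genes were alike in both genotypes. The median half-width of the 95% interval was 0.282 in MPP, larger than the median value itself.

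The order of the subcomplexes was not the same in MPP. The standard beta subunits had the lowest median, at -0.27, with all 7 below 0. The alpha subunits, Psma8 included, had -0.20, the ATPases -0.15 and the other regulatory subunits -0.15, and all 30 tested standard subunits lay below 0. Psmb6 had the lowest value of the beta ring and Psmb7 the highest, at -0.09 (SE 0.161). Psma8 had a value of -0.0004 (SE 0.212), Psmc1 had -0.28 (SE 0.164) and Psmc6 -0.06 (SE 0.114), the lowest and highest of the ATPases. Psmd4 had -0.24 (SE 0.151) and Psmd12 -0.01 (SE 0.110), the lowest and highest of the other regulatory subunits. Psmd7, without a p-value, had -0.11 (SE 0.174). The 5 genes called in GMP other than Psmc6 had values in MPP of -0.26 for Psma5, -0.19 for Psmd14, -0.19 for Psma1, -0.12 for Psmd6 and -0.07 for Psma3, none of them called.

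The inducible subunits lay below 0 in MPP, at -0.15 for Psmb8 (SE 0.159), -0.13 for Psmb9 (SE 0.114) and -0.04 for Psmb10 (SE 0.163). Psmb5, which Psmb8 replaces, had -0.34 (SE 0.183). The activator genes ran from -0.26 for Psme2 (SE 0.155) to 0.0048 for Psme4 (SE 0.0770), with -0.06 for Psme3 and -0.0084 for Psme1. The inhibitor gene Psmf1 had -0.17 (SE 0.134). Psmd10 had the second lowest value of all members, at -0.37 (SE 0.202), and Psmd9 the highest, at 0.15 (SE 0.163). Psmg3 and Psmg2 had -0.24 (SE 0.332) and -0.09 (SE 0.134), the lowest and highest of the core chaperones, and Psmc3ip had -0.12 (SE 0.149).

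**Figure D3:**
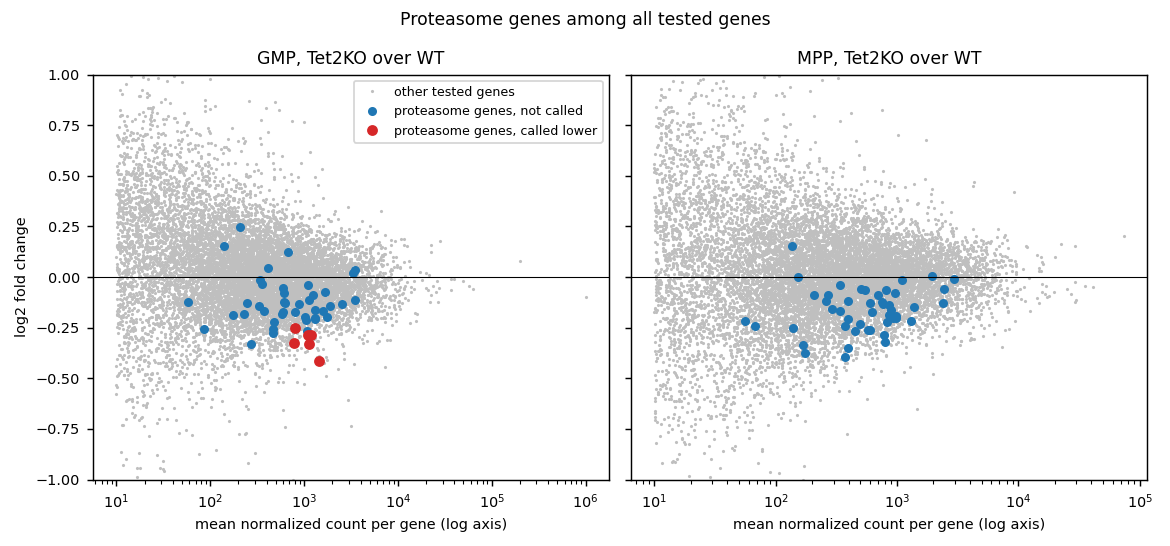
Log2 fold change of Tet2KO over WT (y axis, shown from -1 to 1) against the mean normalized count (x axis, log scale) in GMP (left) and MPP (right). Grey points are all other tested genes, of which those beyond 1 are not drawn, blue points proteasome genes that were not called, and red points the 6 called lower in GMP, whose means run from 774 to 1456.

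To compare the effect in GMP with that in MPP, the log2 fold change in MPP was subtracted from that in GMP and divided by the SE of the difference, with the errors taken as independent. Among the 17660 genes that have a p-value for each population, 8 were called (0.0453%), and none of the 48 members was among them. These genes include many below the authors' filter on the mean, Psmb11 among them, since only 11503 were tested in GMP and 11859 in MPP. The shares over all genes and the adjustment therefore rest partly on genes of very low mean. With a minimum mean of 50 in both populations 6 genes were called, and 0 of 47 members. No member had an unadjusted p under 0.05, where 633 of all genes (3.58%) did. The members' lowest adjusted p was 1.00 with Benjamini-Hochberg adjustment of this normal test. The comparisons share mice, since 3 of the 4 mice per genotype gave both populations, so the values of one table are not independent of those in the other. The lowest difference was that of Psmc6, at -0.27 (95% interval -0.54 to 0.0014), from -0.33 in GMP and -0.06 in MPP. The highest was that of Psmb9, at 0.26 (95% interval -0.06 to 0.58), from 0.13 in GMP and -0.13 in MPP. The median half-width of these intervals was 0.338, larger than the size of the GMP value of every member except Psmd14.

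**Figure D4:**
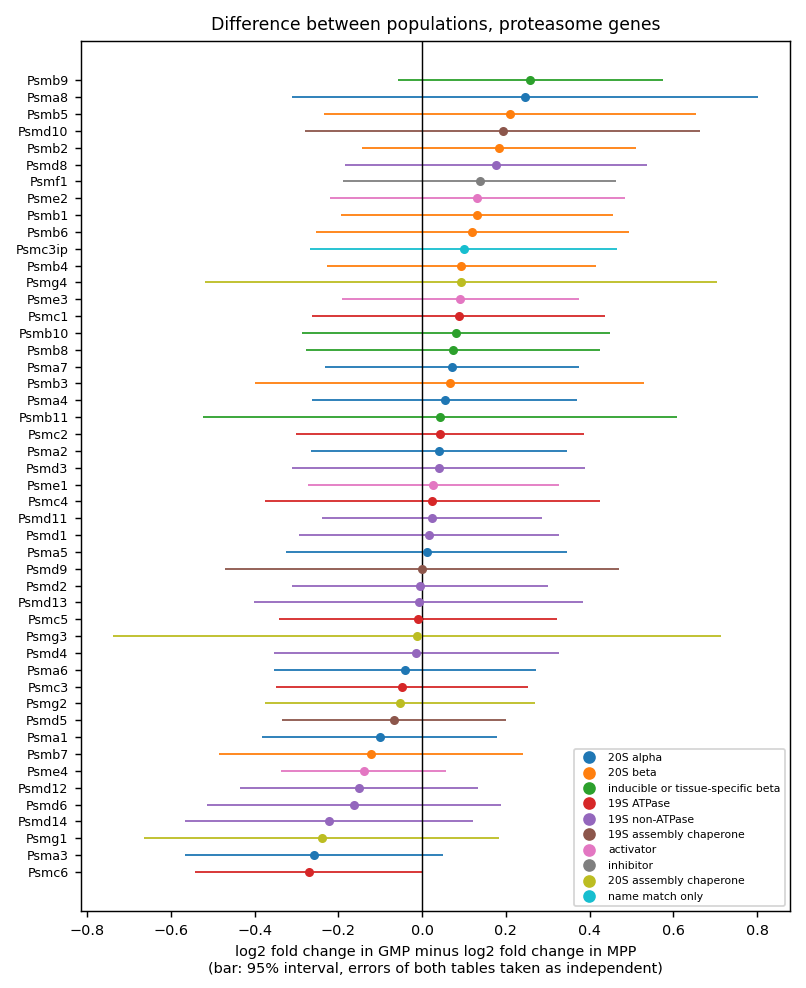
Difference of the log2 fold changes, GMP minus MPP (x axis, point), with its 95% interval (bar) for the 48 members with a p-value in both tables (y axis, ordered by the difference and coloured by subcomplex). All intervals include 0, from Psmc6 at -0.27 to Psmb9 at 0.26. The 48 members include Psmb11, which was below the authors' filter.

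Other genes of the pathway were taken from a list of 40 genes, of which 39 were found. In GMP 37 were tested, with 3 called lower (8.11%, beside 2.22% of all tested genes), 1 called higher, 23 below 0 and a median of -0.02. Vcp, the unfoldase that pulls ubiquitinated proteins out of complexes and hands them to the proteasome, fell by 0.26 (SE 0.0747, adjusted p = 0.0222, authors' DESeq2 table). Rps27a, which encodes ubiquitin fused to a ribosomal protein, fell by 0.28 (SE 0.0860, adjusted p = 0.0323). Ngly1 fell by 0.39 (SE 0.111, adjusted p = 0.0204). It removes sugars from NFE2L1, the transcription factor that raises proteasome genes when proteasome activity is short. Nfe2l1 itself had -0.02 (SE 0.0795), Nfe2l2 0.04 (SE 0.0610) and Ddi2, the protease that cuts NFE2L1, 0.27 (SE 0.117, adjusted p = 0.187). B2m, the light chain of MHC class I, rose by 0.18 (SE 0.0551, adjusted p = 0.0358).

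The 12 direct partners of the proteasome had a median of -0.08 in GMP, with 10 below 0 and none called. Shfm1, which encodes a small subunit of the regulatory particle, had -0.25 (SE 0.102, adjusted p = 0.165), the deubiquitinase gene Usp14 -0.20 (SE 0.0806, adjusted p = 0.153), the ubiquitin receptor gene Adrm1 -0.08 (SE 0.140) and the assembly factor gene Pomp -0.01 (SE 0.0726) in the authors' DESeq2 table. Of 6 tested antigen processing genes 4 lay above 0 and 2 below, with a median of 0.07. Tap1, which lies beside Psmb9, had 0.16 (SE 0.0876), Tap2 -0.12 and Erap1 -0.06, and Nlrc5 was marked as an outlier. In MPP none of 38 tested pathway genes was called, with 25 below 0 and a median of -0.03. Nlrc5, the activator of MHC class I genes, had 0.44 (SE 0.130, adjusted p = 0.0833 in the authors' DESeq2 table), Nfe2l2 0.19 (SE 0.0816), Vcp -0.19 (SE 0.0831) and Shfm1 -0.35 (SE 0.195).

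For scale, 3 other families of widely used genes are set beside the proteasome without a test of the difference. In GMP 59 of 78 tested cytosolic ribosomal protein genes lay below 0 (median -0.09, 4 called lower), 52 of 75 mitochondrial ribosomal protein genes (median -0.08, 1 called lower) and 28 of 61 Skp1a, cullin and F-box genes (median 0.01, 1 called lower). The shares called lower in GMP were 5.13%, 1.33% and 1.64% in this order, beside 2.22% of all tested genes. In MPP the values were 73 of 75 (median -0.19, 1 called lower), 62 of 75 (median -0.11, 0 called lower) and 34 of 60 (median -0.01, 1 called lower), where 0.270% of all tested genes were called lower. At an unadjusted DESeq2 p of 0.05 in MPP, 20 of the 75 cytosolic ribosomal protein genes were lower and 0 higher. Of the 47 proteasome members 3 were lower and 0 higher, where 4.80% of all tested genes were lower. In GMP at the same threshold, 19 of 78 cytosolic ribosomal protein genes and 19 of 48 proteasome members were lower. In each family 0 were higher in GMP, where 8.68% of all tested genes were lower.

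Levels were set between genes as mean normalized counts per kilobase of the principal GENCODE transcript, within each population, with no spread over libraries at hand. Psme1 had the highest level of all members in both, at 2976 per kilobase in GMP and 2669 in MPP, and Psma7 followed with 2072 in GMP and 1432 in MPP. The 31 standard subunits ran from 189 for Psmd13 to 2072 per kilobase in GMP, with a median of 511, and the assembly chaperones and the inhibitor lay at 312 or below. In GMP the inducible Psmb8 had 1023 per kilobase and Psmb5, which it replaces, 276. Psmb9 had 499 and Psmb6 591, and Psmb10 had 312 and Psmb7 895. In MPP the same pairs had 850 and 188, 567 and 469, and 260 and 598 per kilobase. These pair levels are uncertain, because stretches of 75 bases, the read length, are shared with other genes. The shared part was 40.0% for Psmb5, 24.1% for Psmb7, 10.8% for Psmb9, 3.2% for Psmb8 and 0% for Psmb6 and Psmb10. Psma8 had 123 per kilobase in GMP and 90.2 in MPP.

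Some members can share reads with other genes. At the read length of 75 bases, 13 of 49 members shared more than 10% of the 75-base words of their principal transcript with transcripts of other genes in GENCODE, and how the authors treated such reads is unknown here. Of the called genes Psma5 shared 39.8%, most with Gm8394, and Psma3 21.3%, most with Gm13835, so these values are uncertain, and 60 exonic bases of Psma5 also overlapped 1700010K24Rik on the opposite strand. Psma1, Psmc6, Psmd6 and Psmd14 shared none. Psme2 shared 51.7% with Psme2b, Psmb5 40.0%, most with Gm3375, and Psmb3 33.1%. Exons of 14 members overlapped those of another gene, among them Psmb9 with Tap1 and Psmb7 with Nek6 on the opposite strand. Whether strand was used in counting is not stated. None of the 4 called genes without shared words overlapped another gene. The 49 members lie on 16 chromosomes.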

How the data were processed

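The members and gene lists were chosen with earlier results of these data known. Libraries were made from 2 ng of total RNA, amplified, and sequenced as single-end reads of 75 bases, per the labels' protocols. STAR, DESeq2 and mm10 are named in the submitters' processing notes. No source used here gives versions, the read counter or the annotation. The deposited tables give per gene a mean normalized signal (counts divided by size factors, per the file headers), a log2 fold change, Tet2KO over WT, its SE, and the p-value and adjusted p-value, all computed by the authors. Recomputation gave the adjusted p as the Benjamini-Hochberg value over genes with a mean of at least 10 that were not marked as outliers, within 2.40e-05. The SE was at most 0.359 in GMP and 0.388 in MPP and small again at low means, as with fold changes shrunken towards 0, which would understate changes of low genes.

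Counts and medians over members, the test of the difference between populations (normal, two-sided, independent errors) and the alternatives were computed with Python 3.11.15, numpy 2.4.6, pandas 2.3.3 and scipy 1.17.1, and figures with matplotlib 3.10.9. The spread of the deposited test statistic over all tested genes was 1.35 times that of the normal null in GMP and 1.15 times in MPP. How the tests behave at such a spread was not tested. Intervals are 1.96 SEs either way. Genes named were every called member, the extremes of each subcomplex, members with an unadjusted p under 0.05, the inducible subunits and those they replace, the activators and the inhibitor. Other named genes were chosen after their values were seen. Positions and shared words come from GENCODE vM21, and upstream sequences from RefSeq (GRCm38.p6), the first listed start of each gene. 1 gene of the pathway list was not used here, and some genes of the lists are not reported here. The deposited p-values rest on the spread between 4 mice per group. Those of the difference between populations take both errors as independent, although 3 mice per genotype gave both populations.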

Additional observations from a re-analysis of the deposited data

How the results depend on the processing

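In GMP 6 members were called. At an adjusted p of 0.1 the number was 11, with 768 genes called in all against 456 at 0.05, and at 0.01 it was 3, with 198 in all. With the statistic centred and rescaled to the spread of all tested genes it was 0, with 72 in all. With a minimum mean of 50 it was 8, with 444 in all, and after recentring on the median of all tested genes 6, with 456 in all, and all member calls under these alternatives were lower in Tet2KO. In MPP 0 members were called by the authors' DESeq2 test, with 3 at an unadjusted p under 0.05, and 0 under each of these 5 alternatives. The medians over members and over each subcomplex moved by less than the median SE of their genes after recentring, and those over members also with other minimum means and without Psmc3ip. Recentring subtracted only 0.00025 in GMP and -0.0038 in MPP from every value, so its outcome was fixed in advance and is no check of the medians. For the difference between populations 0 members were called under each alternative. With errors correlated at 0.346, as the statistics of both tables are across genes, 3 members had an unadjusted p under 0.05 and the lowest adjusted p was 0.469, against 0 members and 1.00 with independent errors. Over all genes the number called rose as well, to 49 from 8, so the rise is not particular to the members.

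No paired analysis was possible because the tables hold no values per library. For the same reason no library was left out in turn, and whether 1 library carries a value was not tested. In MPP, where the median SE was 0.144, the median 95% interval was 0.282 either way, more than most of the changes in GMP.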
